A study of Mus musculus with 4 samples.

Results

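The genes described here are the potassium channel genes of mouse cortical neurons after depletion of the mRNA cap scavenger DcpS. They were chosen by symbol alone: every row of the deposited table named Kcn followed by letters and a number, with Lrrc26, Lrrc38 and Lrrc55, which encode accessory subunits of large-conductance calcium-activated channels. This gave 90 of 32681 genes. A further 7 rows that begin with Kcn (antisense and overlapping transcripts, Kcnrg and Kcne1l) did not match the pattern and were left out. Lrrc52 was also sought, but the deposited table held no row of that name. The RNA came from primary neuronal cultures of neocortex from wild-type CD-1 embryos at embryonic day 13, grown in Neurobasal medium with B27. Cultures were transfected with a control shRNA (2 libraries) or an shRNA against DcpS (2 libraries), to find transcripts that depend on DcpS. CD-1 is an outbred stock. The hairpin sequences and the share of cells transfected were not given in the sources used here, and a single group carried DcpS shRNA. No label ties a library to its own litter or dissection, so the p-values below speak for the spread among these 4 libraries alone, and that spread may be technical.

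Potassium channels let potassium leave the cell and so set the resting potential, shape the end of each action potential and limit repetitive firing. Their pore subunits fall into voltage-gated families, calcium- or sodium-activated families, inward rectifiers and leak channels with a pair of pore domains per subunit, and accessory subunits change their gating or their delivery to the membrane. In cortical neurons the Kcnq channels carry the M-current, a slow potassium current that muscarinic receptors switch off, while Kcnd channels with their Kcnip partners carry the fast transient A-type current.

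The 4 libraries held 17754768 to 21793685 recovered reads, of which potassium channel genes took 0.115% to 0.126%. Dcps itself was lower in both DcpS shRNA libraries, with normalised read counts of 499.8 and 507 in the controls against 114 and 119.6 with DcpS shRNA. The filter on low counts was passed by 12 of 12 neuron markers. Their summed normalised counts were 118712 to 119722 in the controls and 115428 to 116148 with DcpS shRNA. That filter does not single out neurons, since 8 of 8 radial glia and progenitor markers and 10 of 10 fibroblast markers passed it too. The radial glia and progenitor sums were 38317 and 36998 in the controls against 40791 and 37778 with DcpS shRNA. Fibroblast and meningeal markers were also present and moved with the groups: their sum was 12238 and 13329 in the controls against 7741 and 7513 with DcpS shRNA, and 7 of 10 fell (limma, Benjamini-Hochberg adjusted p under 0.05). Mural and endothelial markers had 3 of 9 tested genes lower, and radial glia markers 1 of 8 higher, Nes. Of all genes tested, 3.65% were called lower and 2.14% higher. Microglia markers had 0 of 7 called (0 at an unadjusted p under 0.05 in limma). Oligodendrocyte markers had 1 of 6 higher, Mbp. Of those 6, 4 had a log2 fold change below 0, and their median was −0.19. Sox10, too low to test, was at 0 in both controls against 0.909 and 4.47 with DcpS shRNA. Olig1 had 52.3 and 39.0 in the controls against 31.8 and 27.9 with DcpS shRNA. Olig2 had 27.6 and 42.0 against 23.6 and 15.6, and neither Olig gene was called. In bulk RNA, fewer cells of a type and less RNA per cell cannot be told apart.

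Of the 90 potassium channel genes, 68 had enough reads to be tested, and 6 of these changed with DcpS shRNA. A gene was called where limma gave a Benjamini-Hochberg adjusted p under 0.05 over all genes tested, and log2 fold changes are of normalised read count + 1. Those that fell included Kcnq3 and Kcnip2, and those that rose were Kcnh1 and Lrrc55. The share called, 8.82%, lay near the 5.79% of all 18110 genes tested that were called. By direction, 5.88% of the tested members were lower against 3.65% of all genes, and 2.94% were higher against 2.14%. The median log2 fold change of the 68 was −0.06, beside 0.00 for all genes, with 30 members above 0 and 38 below. In 37 members (54.4%) the groups did not overlap, beside 48.4% of all genes, so separation of 2 against 2 libraries was common at large. Without control 2 the number of called members was 3 in place of 6, those being Kcnq3, Kcnh1 and Lrrc55, and the number of all called genes was 594 in place of 1048, against 670 without control 1. DESeq2 called 4 members and 453 genes.

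**Figure D1:**
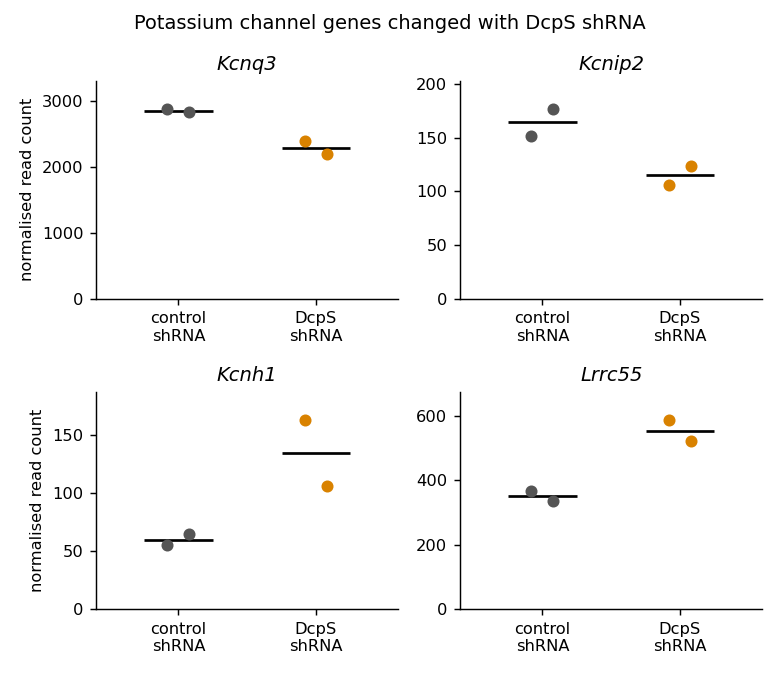
Normalised read count (linear axis from 0) in each library of 4 of the called potassium channel genes; dots are libraries, replicate 1 left and replicate 2 right within each group, and bars are group means of 2. In each panel the groups do not overlap, and the widest spread relative to its mean is that of Kcnh1 with DcpS shRNA, 163 and 106.

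Kcnq3, a subunit of the neuronal M-channel, fell with DcpS shRNA. It was among the more abundant members, at 175 normalised reads per kilobase of exon. Kcnq3 (chromosome 15, 65986387 to 66286642, minus strand, GRCm38, GENCODE M21) had counts of 2871 and 2837 in the controls against 2392 and 2194 with DcpS shRNA. Its mean fell to 2293 ± 140.4 from 2854 ± 24.6 (SD, n = 2 per group), a log2 fold change of −0.32 (SE 0.06, limma, Benjamini-Hochberg adjusted p 0.00252). Both DcpS shRNA libraries lay below both controls, with DcpS shRNA 2 the lowest. The call of Kcnq3 held in each of the 13 other settings tried, with adjusted p from 1.27e-05 to 0.0195.

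Kcnq5, another subunit found in cortical M-channels, did not pass: its counts were 866 and 902 against 794 and 781, with a log2 fold change of −0.17 (SE 0.07, adjusted p 0.171). Its groups did not overlap either. Kcnq1, the cardiac and epithelial subunit, was listed at 3 reads or fewer in each library.

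Among neuron markers the vesicle fusion gene Snap25 (−0.26) and the calcium sensor Syt1 (−0.22) also fell, the neuronal splicing factor Rbfox3 rose (0.24), and 9 of 12 were not called. The part that a shift in neuronal content plays in the Kcnq3 and Kcnq5 values was not tested.

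**Figure D2:**
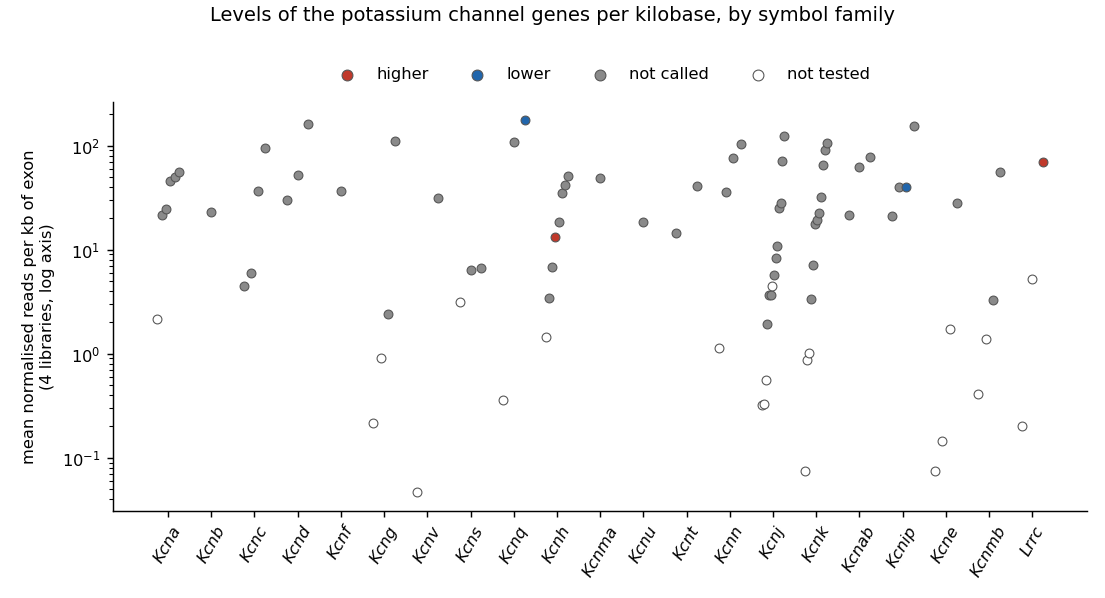
Mean normalised reads per kilobase of exon over the 4 libraries (log axis) for 87 members, grouped by symbol family; colour gives the call and open circles the genes with too few reads to test. Kcnq3 stands at 175, and Kcnh1 lies lower within its own family, at 13.2.

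Among the voltage-gated pore subunits 1 gene rose. Kcnh1 (chromosome 1, 192190774 to 192510159, plus strand) encodes an ether-à-go-go channel that opens slowly on depolarisation and is found in brain. Its normalised counts were 55.1 and 64.6 in the controls against 163 and 106 with DcpS shRNA. The mean rose to 134 ± 39.9 from 59.9 ± 6.72 (SD, n = 2 per group), 2.25-fold, with a log2 fold change of 1.13 (SE 0.20, limma, Benjamini-Hochberg adjusted p 0.00221). This was the largest rise among the 68 tested members, and the DcpS shRNA libraries differed from each other by more than the controls did. The call held in each of the 13 other settings (adjusted p 2.13e-07 to 0.0203), and the log2 fold change was 0.82 without DcpS shRNA 1 and 1.43 without DcpS shRNA 2.

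The 6 other tested Kcnh genes were not called. Kcnh7, an ERG channel and the family's highest per kilobase (51.1), had counts of 799 and 838 in the controls against 775 and 699.6 with DcpS shRNA (log2 fold change −0.15, adjusted p 0.266). Kcnh8, an ELK channel, had 40.9 and 36.9 against 26.3 and 21.2 (−0.69, SE 0.26, adjusted p 0.154). The ERG gene Kcnh2 overlapped between groups (0.02, adjusted p 0.951). Kcnh1 therefore stood alone among the tested members of its family in passing the threshold; whether its change differs from theirs was not tested.

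The Shaker-type delayed rectifiers (Kcna) had 0 of 5 tested genes called (limma; 1 at an unadjusted p under 0.05, 0 called by edgeR or DESeq2). Kcna1, which sits in axons and damps their excitability, had counts of 253 and 234 in the controls against 314 and 275 with DcpS shRNA (0.27, SE 0.11, adjusted p 0.175). Both DcpS shRNA libraries exceeded both controls for Kcna1, without passing the test. Kcna3 had 93.1 and 99.5 against 85.4 and 72.6 (−0.29, adjusted p 0.389), and Kcna2, Kcna4, Kcna6 and the Shab-type gene Kcnb2 overlapped between groups.

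The fast Shaw-type rectifiers (Kcnc) likewise had 0 of 4 called. Kcnc1, which lets neurons fire at high rates, was their highest at 94.6 reads per kilobase and had counts of 836 and 889 against 939 and 914 (0.10, adjusted p 0.431). Kcnc2, a marker of fast-spiking interneurons, had far fewer reads, 36.1 and 43.1 in the controls against 14.5 and 33.5 with DcpS shRNA (−0.80, SE 0.33, adjusted p 0.202). One library set that value: without DcpS shRNA 2 Kcnc2 was called (−1.38, adjusted p 0.0117), and without DcpS shRNA 1 the log2 fold change was −0.23, with adjusted p up to 0.740 over the settings. Interneuron markers gave 0 of 8 calls (1 at an unadjusted p under 0.05 in limma, 0 called), with summed counts of 362 and 371 against 330 and 331; their part in the Kcnc2 value was not tested.

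The A-type channels and their Kcnip partners gave 1 call between them. Kcnip2, a calcium-binding protein that brings Kcnd channels to the membrane and speeds their recovery, had counts of 152 and 176 in the controls against 106 and 124 with DcpS shRNA. Its mean fell to 115 ± 12.5 from 164 ± 17.2 (SD, n = 2 per group), a log2 fold change of −0.51 (SE 0.14, limma, Benjamini-Hochberg adjusted p 0.0481). That call ended without control 2 (0.332), without DcpS shRNA 1 (0.157), with DESeq2 (0.294) and with library-total scaling (0.0504), in a range over the settings of 0.00837 to 0.332.

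Its paralog Kcnip1, seen mainly in interneurons, had 228 and 208 in the controls against 280 and 276 with DcpS shRNA (0.35, SE 0.11, adjusted p 0.0680), and the groups did not overlap. The ratio of Kcnip1 to Kcnip2 counts was 1.5 and 1.18 in the controls against 2.63 and 2.23 with DcpS shRNA. Kcnip3, also known as the transcriptional repressor DREAM, was the most abundant of the 4 Kcnip genes per kilobase (154) and had 516 and 541 against 543 and 587 (0.10, adjusted p 0.571). Kcnip4 overlapped between groups. Kcnip2 and Kcnip1 thus had values in opposite directions; the fall of Kcnip2 passed the test, Kcnip1 did not, and the difference between them was not tested.

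Among the pore subunits, Kcnd3 was the highest of its family per kilobase (160.1). Its counts were 1567 and 1701 in the controls against 1465 and 1407 with DcpS shRNA (−0.19, SE 0.06, adjusted p 0.0870). Among the fits that left out 1 library, the one without DcpS shRNA 1 called it (0.0382, range over the settings 0.0382 to 0.567). Kcnd2, the main dendritic A-type subunit, had 301 and 281 against 249.9 and 238 (−0.25, SE 0.10, adjusted p 0.188), and Kcnd1 overlapped.

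**Figure D3:**
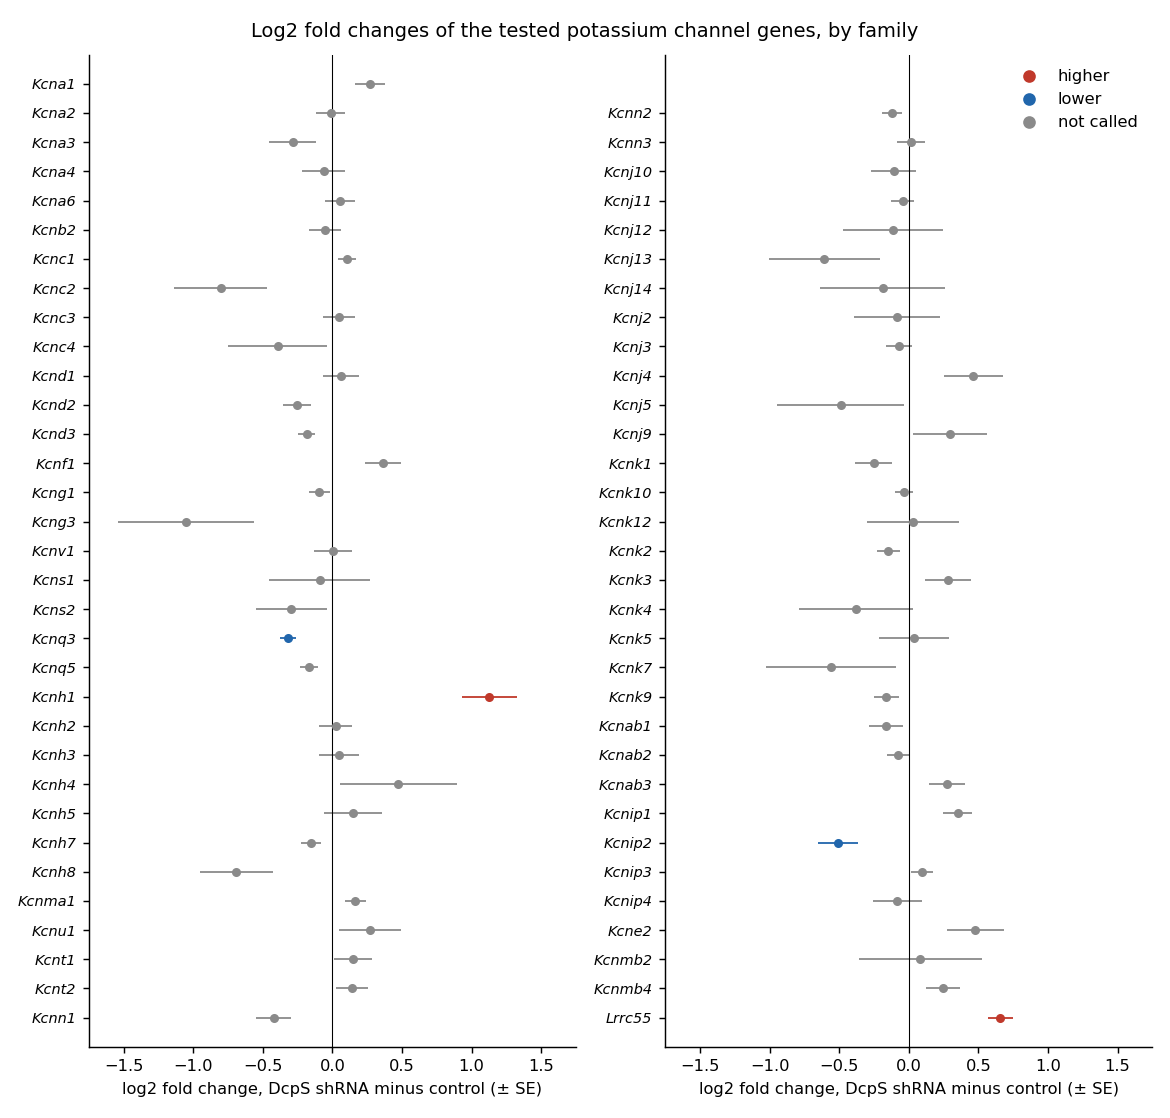
Log2 fold change, DcpS shRNA minus control, with its standard error (limma) for 65 tested members, in family order; red is called higher, blue called lower and grey not called. Values lie from −1.05 (Kcng3) to 1.13 (Kcnh1), and genes with few reads carry the widest bars.

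Silent subunits form no channel alone but join Kcnb subunits and alter them. None of their 6 tested genes was called (limma; 2 at an unadjusted p under 0.05, 0 called by edgeR or DESeq2). Kcng1, the highest per kilobase (111), had 521 and 511 in the controls against 482 and 485 (−0.09, adjusted p 0.576). Kcnf1 had 164 and 142 against 207 and 186 (0.36, SE 0.13, adjusted p 0.131). Kcng3 had the lowest log2 fold change of all tested members, −1.05 (SE 0.49, adjusted p 0.259), on counts of only 11.4 and 11.3 against 5.45 and 4.47. Kcnv1 and Kcns1 overlapped between groups.

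Of the subunits of the large-conductance calcium-activated (BK) channel, the gamma subunit Lrrc55 rose. Lrrc55 (chromosome 2, 85162334 to 85197197, minus strand) is a leucine-rich repeat protein that lets BK channels open at more negative voltage. Its normalised counts were 367 and 335 in the controls against 587 and 522 with DcpS shRNA, and its mean rose to 554 ± 46.0 from 351 ± 22.2 (SD, n = 2 per group), 1.58-fold. The log2 fold change was 0.66 (SE 0.09, limma, Benjamini-Hochberg adjusted p 0.000264), the smallest p of any potassium channel gene. The call held in each of the 13 other settings (adjusted p 3.95e-10 to 0.000609). Exons of Lrrc55 overlap the opposite-strand genes Gm13713 and Gm13716 by 210 and 266 bases, and use of strand in counting is not given; Gm13716 itself had 38.0 and 35.9 against 47.2 and 38.0 (0.19, adjusted p 0.726).

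The other BK subunits did not pass. The pore gene Kcnma1 had 772 and 774 in the controls against 939 and 799 with DcpS shRNA (0.16, SE 0.08, adjusted p 0.263), and it was called without DcpS shRNA 2 (0.28, adjusted p 0.0291, range over the settings 0.0291 to 0.805). The neuronal beta subunit Kcnmb4 had 178 and 159 against 202 and 198 (0.25, SE 0.12, adjusted p 0.288). Both genes had higher counts in both DcpS shRNA libraries than in either control. The ratio of Lrrc55 to Kcnma1 counts was 0.475 and 0.433 in the controls against 0.625 and 0.653 with DcpS shRNA. The gamma subunit genes Lrrc26 (5.70 and 11.3 against 3.63 and 4.47) and Lrrc38 (at most 1 read in any library) were too low to test.

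The promoters of the genes that rose are shown because both lie in the RefSeq set, which held 48 of the 68 tested members, from 250 bases before to 50 after the annotated start (GRCm38.p6), 5′ to 3′ on the gene's strand. Capitals mark the letters GGGCGG or their reverse complement, the core of a GC box. The Lrrc55 window (chr2:85198701-85199000, minus strand) lies upstream of the GENCODE M21 start of that gene at 85197197.
Lrrc55: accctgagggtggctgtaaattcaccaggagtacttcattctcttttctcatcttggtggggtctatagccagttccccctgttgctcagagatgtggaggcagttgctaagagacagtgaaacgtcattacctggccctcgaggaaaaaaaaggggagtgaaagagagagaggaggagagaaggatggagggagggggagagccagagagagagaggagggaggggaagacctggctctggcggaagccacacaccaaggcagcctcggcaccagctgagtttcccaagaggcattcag
Kcnh1 (chr1:192190527-192190826, plus strand): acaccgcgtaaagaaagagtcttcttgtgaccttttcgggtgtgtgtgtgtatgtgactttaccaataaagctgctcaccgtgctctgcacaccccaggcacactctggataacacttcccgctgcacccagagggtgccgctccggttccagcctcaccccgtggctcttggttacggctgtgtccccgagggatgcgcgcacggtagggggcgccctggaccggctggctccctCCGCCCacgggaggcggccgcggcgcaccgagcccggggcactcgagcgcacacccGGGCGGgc
Their base composition differs. The Lrrc55 window holds 4 CpG dinucleotides, 54.7% G and C and 0 GC boxes, and the Kcnh1 window 27 CpG, 66.0% G and C and 2 GC boxes. Among 11741 tested genes with such a window the median was 20 CpG and 60.7% G and C, and 63.1% held the GC box letters on either strand, beside 64.6% of 48 potassium channel genes. The letters TATAAA, on either strand, were in neither window and in 7.21% of all. The window of Kcnip2, which fell, also lies in the set but is not printed. It holds 18 CpG, 67% G and C and 2 GC boxes.

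Small-conductance calcium-activated (SK) and sodium-activated channels, which follow spikes with a hyperpolarisation, gave 0 calls of 5 tested. Kcnn1 came nearest, with counts of 197 and 176 in the controls against 139.9 and 137 with DcpS shRNA (−0.42, SE 0.13, limma adjusted p 0.0653), the lowest adjusted p among members not called. Kcnn2, the highest of the group per kilobase (104), had 834 and 788 against 785 and 708 (−0.12, adjusted p 0.404). Kcnn3, Kcnt2 and the sperm channel gene Kcnu1, which was not called either, overlapped between groups, and Kcnt1 had 121 and 138 against 139 and 148 (0.15, adjusted p 0.638).

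Inward rectifiers, which hold the resting potential or answer G proteins and ATP, had 0 of 10 tested genes called (limma; 1 at an unadjusted p under 0.05, 0 called by edgeR or DESeq2). Kcnj11, the pore of ATP-sensitive channels, was the highest per kilobase (125) and had 477 and 455 in the controls against 456 and 447 (−0.05, SE 0.08, adjusted p 0.831). The G-protein-gated subunit Kcnj3 overlapped, with 354 and 406 against 358 and 365. Kcnj4, a strong inward rectifier, had 49.4 and 41.0 against 56.3 and 69.3 (0.46, SE 0.21, adjusted p 0.251). Lower values without overlap were found at low counts for Kcnj13, a choroid plexus channel (19.0 and 14.4 against 8.18 and 13.4), and Kcnj5 (11.4 and 10.3 against 8.18 and 6.70).

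Kcnj10 and Kcnj8 are the inward rectifiers of astrocytes and pericytes. Kcnj10 had 142 and 171 in the controls against 121 and 172 with DcpS shRNA (−0.11, SE 0.16, adjusted p 0.793), with overlap. Among 9 tested astrocyte markers 3 were lower and 1 higher, 44.4% called beside 5.79% of all genes. The marker sums were 12057 and 12036 against 11920 and 12019. Their largest term was Aldoc, whose mean rose to 4393 from 3802. In 6 of the 9 both DcpS shRNA libraries lay below both controls, and in 1, Aldoc, above. The groups were thus apart in 77.8% of these markers, beside 48.4% of all genes. Kcnj8 was too low to test (22.8 and 9.23 against 7.27 and 6.70), and Abcc9, its sulfonylurea-receptor partner, had 34.2 and 22.6 against 16.4 and 13.4 (−0.86, SE 0.33, adjusted p 0.155). Mural and endothelial markers summed to 1549 and 1596 against 1369 and 1301, and 3 of 9 tested were lower; their part in the Kcnj8 and Abcc9 values was not tested.

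Leak channels set the resting conductance and answer to pH, stretch and anaesthetics. None of their 9 tested genes was called (limma; 0 at an unadjusted p under 0.05, 0 called by edgeR or DESeq2), and their median log2 fold change was −0.15. Kcnk10, the highest per kilobase (107), had 935 and 958 in the controls against 954 and 897 with DcpS shRNA (−0.03, SE 0.06, adjusted p 0.849). The stretch-activated channel Kcnk2 had 463 and 481 against 424 and 428 (−0.15, SE 0.08, adjusted p 0.364). The acid-sensitive channels Kcnk9 (395 and 437 against 389.8 and 354) and Kcnk3 (84.6 and 76.9 against 106 and 90.5) had values on opposite sides of their controls.

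The remaining accessory subunits gave no call. Kcnab2, the most abundant Kv beta subunit (78.1 reads per kilobase), had 438 and 456 in the controls against 419.8 and 429 with DcpS shRNA (−0.07, adjusted p 0.697). Kcnab3 had 179 and 147 against 195 and 197 (0.27, adjusted p 0.266). Kcne2, a single-span subunit also abundant in choroid plexus, was the one tested Kcne gene among the members. It had 42.8 and 40.0 against 59.1 and 57.0 (0.48, SE 0.21, adjusted p 0.222). Kcne1l, which the symbol pattern left out, had 76.0 and 63.6 against 93.6 and 98.3 (0.46, limma adjusted p 0.150).

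The 22 members that were not tested had mean normalised counts of at most 11.5. In 9 of them at least 1 library was at 0, among them Kcng4, Kcnv2, Kcnk18, Kcne1 and Kcne3; a count of 0 allows up to 3 reads, or 2.73 to 3.35 normalised reads, and covers counting error only.

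Proteins that bind, anchor or gate potassium channels were read from a list of 31 genes, of which 2 were called, 6.45% against the 5.79% of all genes. Adam22, a receptor for Lgi1 found with axonal Kcna channels, had 1803 and 1855 in the controls against 1606 and 1561 with DcpS shRNA (−0.21, SE 0.06, adjusted p 0.0355). Calm2, one of the genes for calmodulin, which sits on Kcnq and Kcnn channels, had 11469 and 11148 against 12347 and 13477 (0.19, SE 0.05, adjusted p 0.0486). The call of Adam22 ended without control 1, control 2 or DcpS shRNA 2 and with DESeq2, and that of Calm2 in 7 of 13 settings, with adjusted p up to 0.277 and 0.426. The Kcnd partners Dpp6 and Dpp10, the axonal anchor Ank3 (7263 and 7509 against 7458 and 6252, adjusted p 0.427), the Kcna organisers Cntnap2 and Cntn2, the Kcnb partner Amigo1 and the Kcnq ubiquitin ligase Nedd4l were not called. Without DcpS shRNA 1 the list had 6 calls, and without control 1, without DcpS shRNA 2 or with DESeq2 it had 0.

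A pair of words of 7 bases was picked out from the lower genes of these libraries. Words present in the Dcps transcript were ranked, after the results were known, by how much more often they occur in 3′ UTRs of called lower genes than in those of all tested genes. Only words held by at least 5% of the lower genes were ranked. The leading pair, ACGTGCA and CACGTGC, share the letters ACGTGC. Either word was present in 33.0% of 645 lower genes scanned, 6.25% of 368 higher genes and 7.96% of 13790 genes in all. The pair was chosen for this excess, so the shares describe that choice and do not test it. The length of the 3′ UTRs was not taken into account. Of the 68 tested potassium channel genes 8 (11.8%) held either word. The ACGTGCA sites of a pair of members that were not called are shown with the word in capitals, 30 bases each, on the transcript strand of GENCODE M21, as examples of the word in a channel gene.
Kcnb2 (chr1:15713017-15713046, plus strand): ggtgggatctcACGTGCAtccaaagggaaa
Kcns2 (chr15:34841786-34841815, plus strand): tcctagtgcctACGTGCAgacacatctatg
The log2 fold changes were −0.05 for Kcnb2 and −0.30 for Kcns2. By call, 1 of 4 lower members, 0 of 2 higher members and 7 of 62 members not called held a word. Members with CACGTGC alone were Kcnc2, Kcnc4, Kcnk9 and Kcnk10, and none of these was called. The part of these words in any value was not tested.

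**Figure D4:**
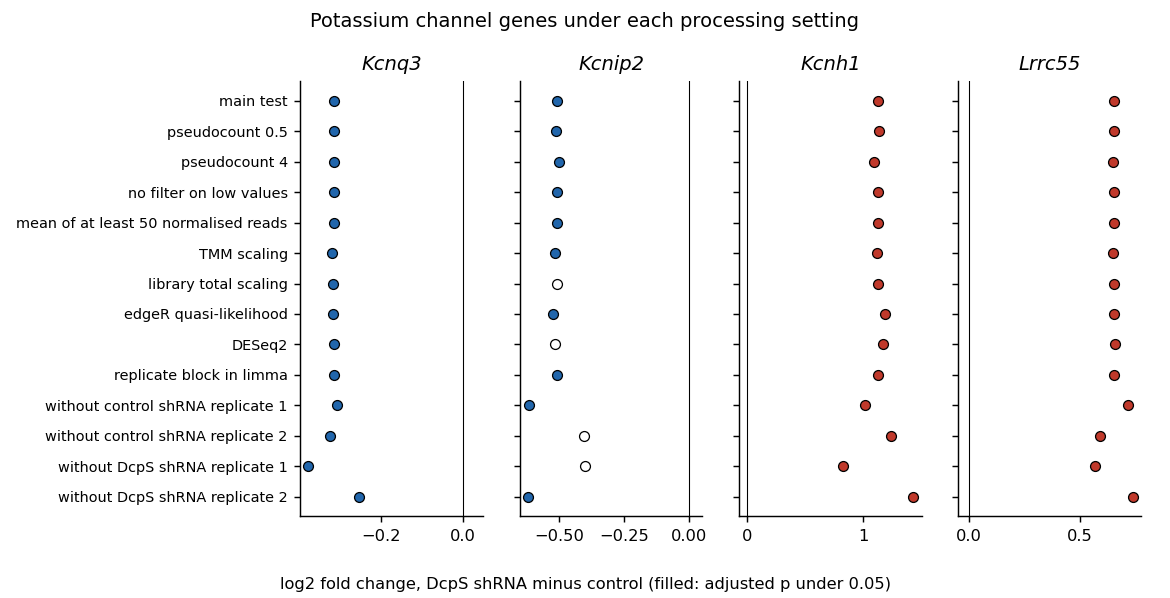
Log2 fold change of Kcnq3, Kcnip2, Kcnh1 and Lrrc55 under the main test and 13 other settings; filled points have an adjusted p under 0.05 and open points do not. Kcnq3, Kcnh1 and Lrrc55 are filled in every setting, Kcnip2 is open in 4, and every point keeps its side of 0.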

How the data were processed

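RNA sequencing gave 4 libraries, 2 per group. Per the submitters' processing notes, which name tools without roles, HISAT2 2.2.0, SAMtools 1.3.1, Picard, featureCounts and DESeq2 were used with build GRCm38; annotation and strand were not given in the sources used here. Per the file, the authors deposited a signal, gene counts divided by one factor per library: 100% of values in each library were whole multiples of its smallest value above 0 within 0.001, and the factors (0.895 to 1.10) equal DESeq2's size factors. Such scaling cannot show a change shared by most genes.

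Log2(value + 1) was tested with limma 3.58.1 (trend, robust, two-sided, Benjamini-Hochberg over 18110 genes kept by filterByExpr, minimum count 10), in R 4.3.3, so fold changes of low genes are understated. A single-gene exact permutation test of 2 against 2 cannot go below p = 0.333. On recovered reads, edgeR 4.0.16 called 1045 genes and DESeq2 1.42.0 called 453. Exon lengths and 3′ UTRs came from GENCODE M21, which held 31622 of 32681 symbols and 90 of 90 members; exons of 24 tested members overlap another gene. The fit was also run on simulated data in which all genes shared a single fixed dispersion. That run does not measure the error rate of the calls in these libraries. Named were called members, each family's highest per kilobase, uncalled members at 0.4 or more in size with groups apart, Lrrc genes and called partners; others were chosen after their values were seen. Members and lists were chosen with earlier results of these data known. Results of some members are counted in the totals but not reported here.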

Additional observations from a re-analysis of the deposited data

How the results depend on the processing

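Across 13 other settings the direction of each of the 6 called channel genes held. The number of called members was 11 with the replicate block (4 higher, 7 lower), 2 lower with DESeq2, and 3 to 8 when 1 library was left out (2 to 3 higher, 1 to 5 lower). The members that the block added include Kcnn1 (adjusted p 0.0240), Kcnip1 (0.0254), Kcnd3 (0.0410) and Kcnc2 (0.04998). The titles carry set 1 and set 2 in both groups but do not state whether samples were paired. Differences between set 1 and set 2 correlated at 0.0429 between groups over 18110 genes. With 2 possible pairs and counting noise in each gene, that value cannot decide whether samples were paired. The block also leaves fewer residual degrees of freedom than the 2 of the main fit. For all genes the count was 1626 with the block (646 higher) and 453 with DESeq2 (141 higher, 312 lower), and 594 to 1439 with 1 library left out (225 to 490 higher, 369 to 949 lower). Called partners numbered 1 at a mean of at least 50 reads, with TMM scaling and with edgeR, 0 with DESeq2, 3 without a filter on low values and with the block, and 0 to 6 with 1 library left out. Where 1 library remains in a group, it is assumed to vary like the other group. Direction turned, never in a called gene, for Kcnv1 with TMM scaling (−0.00036), with edgeR (−0.0043) and between −0.0940 and 0.102 with 1 library left out. Leaving out 1 library also gave −0.513 to 0.330 for Kcns1 (above 0 without control 1), and, turning without DcpS shRNA 2, −0.0766 to 0.0116 for Kcnk10, −0.0318 to 0.315 for Kcnt2 and −0.0831 to 0.621 for Kcnu1. The cause of these changes was not tested. Depth limits the 22 untested members and those under about 50 reads, whose standard errors were the widest.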
